A study of Mus musculus with 6 samples.

Results

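The microglia genes described here are a list of 39 genes that mark microglia, the resident macrophages of the brain, in their resting and activated states. The list was given by name, with no measured value in its rule, but it was chosen with earlier results of these data known. Its members were found through the Ensembl identifiers of the count files and the gene symbols of GENCODE M21 (build GRCm38). Of the 39 genes, 37 were among the 60354 features of the count files, and Irf8 and Cyba were not analysed here. A test was made for 36 of them, among 18580 features that passed a filter on low counts, and Itgam fell under the filter.

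Brain RNA was sequenced from 3 control mice, numbered 2, 5 and 10, and 3 PLDP mice, numbered 17, 22 and 26, and values are given in that order throughout. All were C57BL/6NCrSlc males that were 16 weeks old when the diets began and ate them for 16 weeks. PLDP is a decomposition product of porcine liver made with a protease. It formed 20% of a modified AIN-93M diet, and the control mice received a modified AIN-93M diet with its total calories adjusted to the PLDP diet. All 6 mice then went through a series of behavioral tests, during which PLDP was not given, and RNA was taken from the whole brain 1 day after the last test.

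Microglia enter the brain before birth from the yolk sac and maintain themselves there. They depend on signaling through the receptor Csf1r and on the transcription factors Spi1, also called PU.1, and Sall1. In the resting brain they survey their surroundings through receptors for fractalkine and purine nucleotides, make the complement component C1q, and clear debris and synapses through phagocytic receptors and lysosomal proteases. On activation they lower surface proteins of the resting state such as P2ry12 and Tmem119 and raise others. In RNA from whole brain, fewer microglia and less RNA per microglial cell cannot be told apart.

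Promoter sequence is shown for members on which the results below turn or which stand for a role, because Spi1 is itself a member and binds a purine-rich core in the promoters of myeloid genes. Sequences are from RefSeq on GRCm38.p6, are written 5′ to 3′ on the strand of the gene, and end 1 base before the start site except for P2ry12. Capitals mark matches to GAGGAA, a PU.1 core, to AGGAAG, an ETS core that overlaps it by 5 bases in GAGGAAG, and to TGANTCA, an AP-1 site, on either strand. P2ry12 encodes a receptor for ADP, P2ry13 a related ADP receptor, C1qb a chain of C1q and Trem2 a receptor for lipids and lipoproteins. For P2ry12 only the 30 bases around its match, from 64 to 35 bases before the start site, are shown.
P2ry12, chr3:59263020-59263049, minus strand: aagctaacaagaAGGAAGttccccagtgac
P2ry13, chr3:59210883-59211132, minus strand: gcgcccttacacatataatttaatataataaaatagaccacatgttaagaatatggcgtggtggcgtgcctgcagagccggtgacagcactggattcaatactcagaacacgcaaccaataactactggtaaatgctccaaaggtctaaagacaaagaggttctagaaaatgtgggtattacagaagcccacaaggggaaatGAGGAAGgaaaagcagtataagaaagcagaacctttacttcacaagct
C1qb, chr4:136886201-136886450, minus strand: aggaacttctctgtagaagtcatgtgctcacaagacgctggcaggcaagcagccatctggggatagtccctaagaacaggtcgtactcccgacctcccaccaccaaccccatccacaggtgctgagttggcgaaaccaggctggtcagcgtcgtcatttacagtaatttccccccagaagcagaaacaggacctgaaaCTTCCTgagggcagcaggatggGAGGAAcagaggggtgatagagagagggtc
Trem2, chr17:48346151-48346400, plus strand: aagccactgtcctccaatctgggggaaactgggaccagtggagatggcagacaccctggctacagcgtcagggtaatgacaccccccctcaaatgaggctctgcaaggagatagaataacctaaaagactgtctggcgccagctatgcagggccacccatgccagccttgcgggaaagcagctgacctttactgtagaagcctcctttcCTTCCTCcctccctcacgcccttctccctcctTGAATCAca

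A promoter window was found for 27 of the 36 tested members, and the 250 bases before the start site were searched on both strands. GAGGAA was present for 14 of the 27 members, or 51.9%, and for 25.9% of the 27025 genes with a window. AGGAAG was present for 16 members, or 59.3%, and for 32.3% of genes. TGANTCA was found for 4 members, or 14.8%, against 7.82% of genes, and the ETS-IRF composite element, at which PU.1 binds with an interferon regulatory factor, for 0 of the 27 against 2.68%. The 4 sequences above, which were picked by name, carry their matches within 52 bases of the start site. Positions of matches in the other members are not given here. A match is a run of letters and not a measured binding site, and windows without one say nothing about the factor.

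Between the diets the microglia genes differed little, and the members that passed the test were the neighboring ADP receptors P2ry12 and P2ry13, both lower in PLDP mice. Of the 36 tested members, 2 fell in PLDP mice at an unadjusted p under 0.05 and 0 rose, by edgeR's quasi-likelihood test. Over all 18580 features tested, 8.60% passed that threshold, 4.91% higher and 3.69% lower in PLDP mice. The 5.56% of members that passed, both of them lower, lay below the 8.60% in either direction and above the 3.69% lower. With Benjamini-Hochberg adjustment over all features the smallest adjusted p of a member was 0.44, and 6 features, or 0.0323%, passed an adjusted p under 0.05, with 0 members among them. With limma voom 2 members fell, beside 3.76% of all features lower, and with DESeq2 1 member did, beside 1.95%. The log2 fold change of PLDP over control was positive for 13 members and negative for 23, with a median of -0.03 beside a median of -0.00062 over all features tested.

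The summed level of the 36 members, in CPM (counts scaled by library size and TMM factor), was 752, 770 and 743 in control mice and 763, 721 and 741 in PLDP mice. PLDP mouse 17 lay within the range of the control mice, and PLDP mice 22 and 26 lay below it. The mean was 755.0 ± 13.8 in control mice and 741.6 ± 20.7 in PLDP mice (SD, n = 3 each), a difference of -1.78%, which is smaller than either SD. Without Lgmn, Csf1r and Ctss, the 3 members with the most counts, the mean was 507.0 ± 5.1 in control and 500.1 ± 15.2 in PLDP mice. That difference of -1.36% is larger than the control SD and smaller than the PLDP SD. Among the mice, control mouse 5 held the highest value of 12 members and PLDP mouse 22 the lowest value of 11, the largest numbers of each. Control mouse 10 and PLDP mouse 17 were highest for 8 members each, control mouse 2 and PLDP mouse 26 for 3 each, and PLDP mouse 22 for 2.

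**Figure D1:**
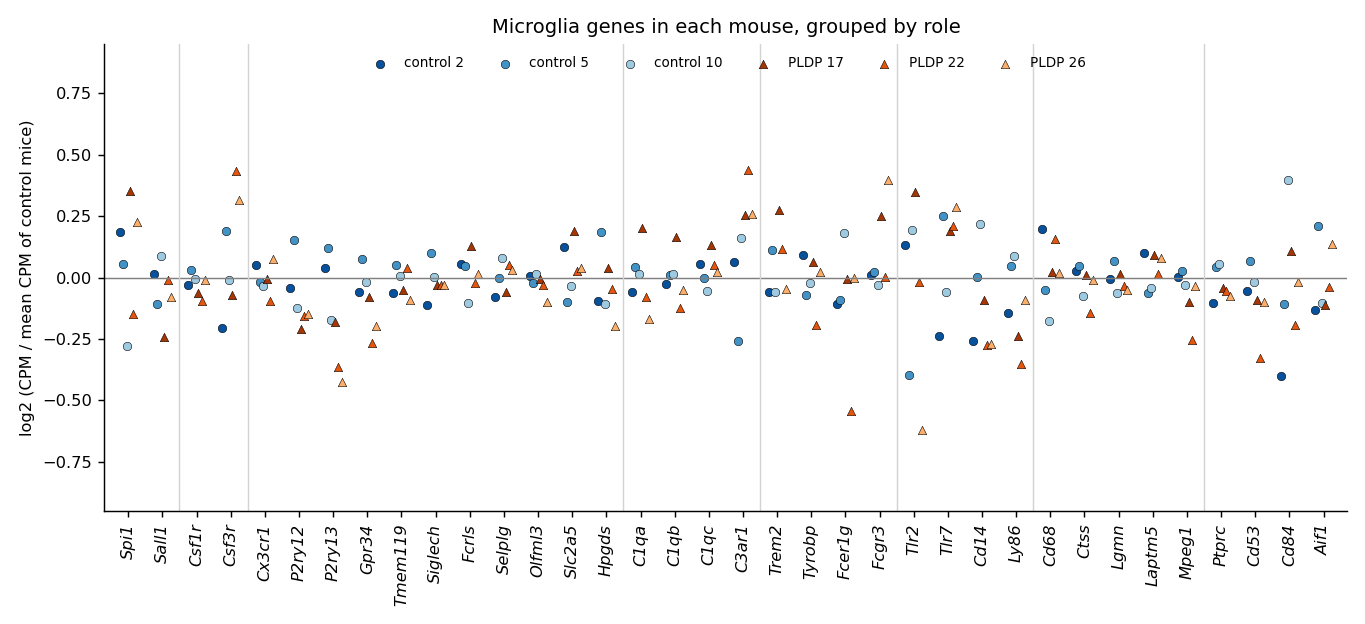
Level of each tested microglia gene in each mouse, as the log2 ratio of its CPM to the mean CPM of the control mice, in the order of the genes' roles, with circles for control and triangles for PLDP mice. The median over the 36 members was between -0.04 in PLDP mouse 22 and 0.04 in control mouse 5, and all 3 PLDP points of P2ry12 and of P2ry13 lie below the lowest control point.

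The tests resolved modest changes for most members. The 95% interval of the log2 fold change lay within a 1.5-fold change in either direction, 0.58 on the log2 scale, for 32 of the 36 members, including all 18 with a mean of 10 CPM or more. The 4 whose interval reached past it were C3ar1, Tlr2, Tlr7 and Cd14, each under 3 CPM. Tested members had between 16 and 2615 counts in a mouse, and the ratio of the highest to the lowest CPM over the 6 mice ran from 1.08 for Olfml3 to 1.96 for Tlr2, with a median of 1.26. Because levels in CPM grow with transcript length, genes are compared with each other per kilobase of exon. On that scale the highest members were the lysosomal protease Lgmn at 48.0 CPM per kilobase, C1qa at 42.9, the protease Ctss at 42.1 and C1qb at 40.1. The ranges of C1qa, Ctss and C1qb over the 6 mice overlapped, and that of C1qa also reached into the range of Lgmn, so the order of these is not resolved. C1qc followed at 20.3, Tyrobp at 18.0 and Csf1r at 13.2, and the lowest was the leukocyte phosphatase Ptprc at 0.205. The length used is that of all annotated exons of a gene merged, not of a single transcript, and the order depends on it. It was 18313 bases for Ptprc and 1931 for C1qc, beside 1040 for C1qa and 1088 for C1qb. Before division C1qc stood at a mean of 39.1 CPM, beside 44.6 for C1qa and 43.7 for C1qb.

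**Figure D2:**
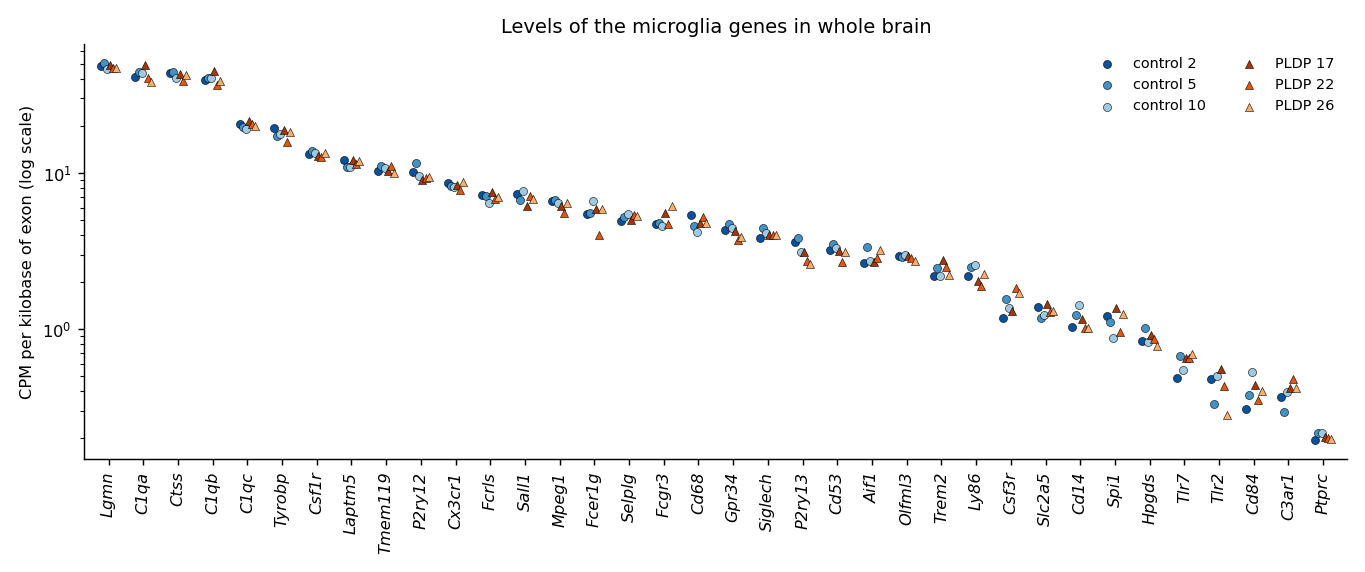
CPM per kilobase of merged exon, on a log axis, of each tested microglia gene in each mouse, ordered by the mean over the 6 mice, with circles for control and triangles for PLDP mice. Levels run from 48.0 for Lgmn to 0.205 for Ptprc, and the mice of both diets lie close together at each gene.

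Both members that fell are purinergic receptors of resting microglia. P2ry12 (ENSMUSG00000036353, chr3:59216272-59262871, minus strand), through which microglial processes are drawn to ADP, stood at 25.7, 29.4 and 24.3 CPM in control mice and at 22.9, 23.8 and 23.9 CPM in PLDP mice. The diets did not overlap, but the highest PLDP mouse lay close under control mouse 10, and control mouse 5 stood above the rest. P2ry12 fell by 0.17 on the log2 scale (SE 0.075), or by 11.3%, with an unadjusted p of 0.035 and an adjusted p of 0.53 by edgeR's quasi-likelihood test. Its promoter stretch printed above holds the ETS core, which is present for 32.3% of genes with a window, and a link to its level was not tested.

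P2ry13 (ENSMUSG00000036362, chr3:59207892-59210882, minus strand), the neighboring ADP receptor gene, stood at 9.14, 9.66 and 7.91 CPM in control mice and at 7.86, 6.92 and 6.63 CPM in PLDP mice. PLDP mouse 17 was just under control mouse 10, and the other PLDP mice were lower. P2ry13 fell by 0.32 on the log2 scale (SE 0.114), or by 19.8%, with an unadjusted p of 0.013 and an adjusted p of 0.44 by edgeR. Both genes lie inside Med12l, which is transcribed from the other strand and shares exonic bases with P2ry12. By edgeR's quasi-likelihood test Med12l had a value of -0.03 on the log2 scale (unadjusted p of 0.636) and the nearby purinergic receptor gene P2ry14 one of 0.10 (unadjusted p of 0.622). The library kit keeps strand, but whether the counting used it is not given in the sources used here.

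The calls of both receptors rested on control mouse 5. Without it the log2 fold change by edgeR was -0.09 for P2ry12 (unadjusted p of 0.258) and -0.26 for P2ry13 (0.065), 0 members passed the threshold, and 6.49% of all features did. P2ry13 passed in the 5 fits that left out another mouse. P2ry12 passed without control mouse 2, control mouse 10 or PLDP mouse 26. It missed the threshold without PLDP mouse 17 (edgeR unadjusted p of 0.068) or PLDP mouse 22 (0.052), and so it did with DESeq2 on all mice (unadjusted p of 0.063).

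**Figure D3:**
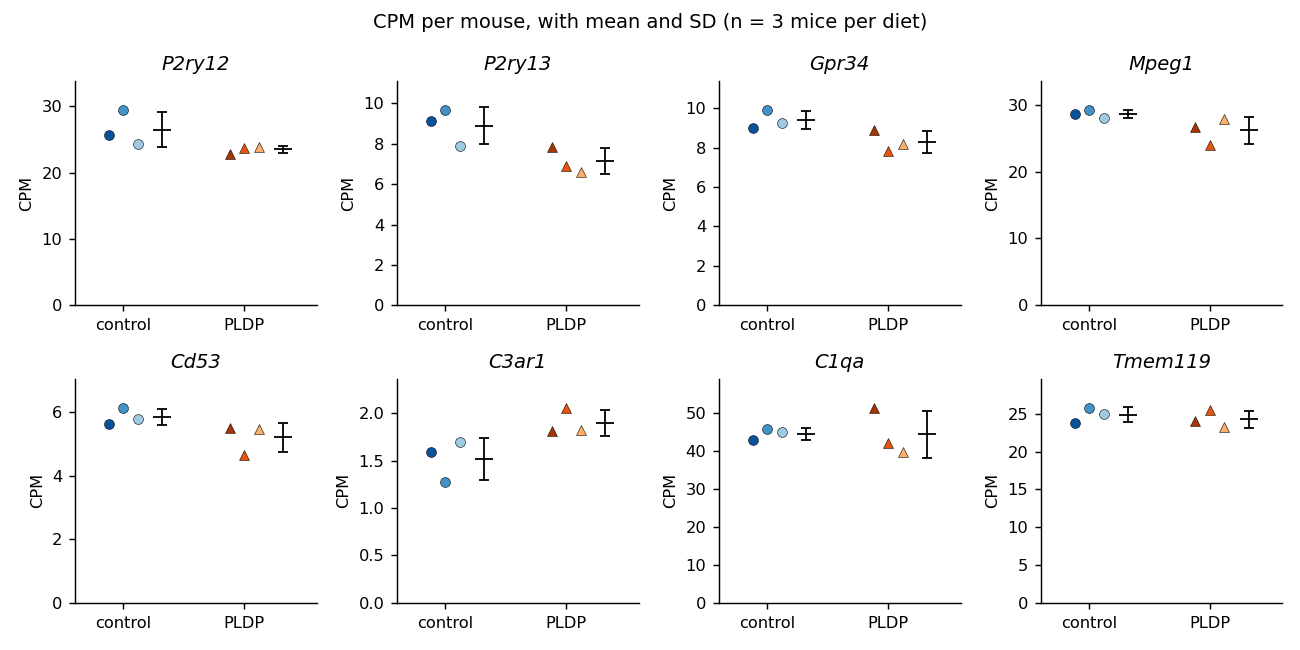
CPM of 8 microglia genes in each mouse, with the mean and SD of 3 mice per diet beside the points and axes starting at 0. P2ry12, P2ry13, Gpr34, Mpeg1 and Cd53 lay lower in every PLDP mouse than in any control mouse and C3ar1 higher, while C1qa and Tmem119 overlapped.

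The other 9 surface and secreted proteins of resting microglia did not pass the threshold. Gpr34, a receptor for lysophosphatidylserine, stood at 8.996, 9.89 and 9.26 CPM in control mice and at 8.88, 7.80 and 8.18 CPM in PLDP mice. Its diets did not overlap, with a narrow gap between control mouse 2 and PLDP mouse 17, and its log2 fold change was -0.18 (unadjusted p = 0.093). Cx3cr1, the fractalkine receptor and the member of this role with the highest mean, stood at 39.1, 37.2 and 36.8 CPM in control mice and at 37.6, 35.3 and 39.7 CPM in PLDP mice, with a log2 fold change of -0.01. The PLDP mice spanned the range of the control mice. Cx3cr1 shares exonic bases with Gm33858 on the other strand, and whether this moved its counts was not tested. Tmem119, a membrane protein used as a microglia marker, Siglech, Fcrls, Selplg and Olfml3 had log2 fold changes between -0.04 and 0.04. The fructose transporter Slc2a5 and the prostaglandin D synthase Hpgds, both under 10 CPM, had values of 0.09 and -0.06. Across the role, 3 of 11 members had a positive log2 fold change and the median was -0.03.

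Of the tested lineage transcription factors and colony-stimulating factor receptors, 0 passed the threshold with edgeR. Sall1 stood at 38.3, 35.3 and 40.3 CPM in control mice and at 32.1, 37.7 and 36.0 CPM in PLDP mice. PLDP mouse 17 was lowest and the other PLDP mice lay within the control range, and the log2 fold change was -0.10 (unadjusted p = 0.151). Spi1 had a log2 fold change of 0.15 with a 95% interval from -0.24 to 0.54. Csf1r, the receptor for Csf1 and Il34, stood at 76.1, 79.4 and 77.4 CPM in control mice and at 74.3, 72.7 and 77.1 CPM in PLDP mice. Its PLDP values ran lower but overlapped the control mice, and its log2 fold change was -0.06 with an interval from -0.16 to 0.04. Csf1r shares exonic bases with Hmgxb3 on the other strand, which had a log2 fold change of 0.03. Whether reads of the overlap were counted for Csf1r was not tested. Csf3r, the receptor for granulocyte colony-stimulating factor, had a log2 fold change of 0.24 (unadjusted p = 0.129).

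Of 4 tested complement genes 0 passed the threshold by edgeR, and only C3ar1, the receptor for C3a, had values that did not overlap between the diets. C1qa, the first chain of C1q, stood at 42.9, 46.0 and 45.2 CPM in control mice and at 51.4, 42.3 and 39.8 CPM in PLDP mice. All 3 C1q genes, which lie next to each other on chromosome 4, were highest in PLDP mouse 17, while the other PLDP mice lay below all control mice for C1qa and C1qb. The log2 fold change was -0.0048 for C1qa, 0.0012 for C1qb and 0.07 for C1qc. C3ar1 stood at 1.59, 1.27 and 1.70 CPM in control mice and at 1.81, 2.05 and 1.82 CPM in PLDP mice. Each PLDP mouse exceeded each control mouse by a small margin, and with 28 to 49 counts per mouse the log2 fold change was 0.33 with an interval from -0.12 to 0.78 (unadjusted p = 0.145).

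In all, 5 members were lower in every PLDP mouse than in every control mouse, namely P2ry12, P2ry13, Gpr34, Mpeg1 and Cd53, and 1 member, C3ar1, was higher. Over all features tested 14.2% separated the diets in this way, 6.90% lower and 7.29% higher. Mpeg1, a pore-forming protein of macrophage phagosomes, stood at 28.7, 29.2 and 28.0 CPM in control mice and at 26.7, 23.98 and 27.9 CPM in PLDP mice. PLDP mouse 26 nearly reached control mouse 10, and the log2 fold change was -0.13 (unadjusted p = 0.076). Cd53, a tetraspanin of leukocytes and the highest of its role, stood at 5.63, 6.12 and 5.77 CPM in control mice and at 5.49, 4.65 and 5.45 CPM in PLDP mice. PLDP mouse 22 was set apart below the others, and the log2 fold change was -0.17 (unadjusted p = 0.184).

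Trem2 and Fc receptor genes went both ways. Tyrobp, the signaling adaptor of Trem2 and the member of this role with the highest mean, stood at 12.9, 11.5 and 11.9 CPM in control mice and at 12.6, 10.6 and 12.3 CPM in PLDP mice. The diets overlapped, with PLDP mouse 22 lowest, and the log2 fold change was -0.04. Trem2 itself had a log2 fold change of 0.12, the common Fc receptor chain Fcer1g one of -0.17 and the low-affinity IgG receptor Fcgr3 one of 0.22 (unadjusted p = 0.071). Reads of Fcgr3 may be shared with its close paralog Fcgr2b, depending on how the counting treated them.

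Among pattern recognition genes, Ly86, the partner of the Toll-like receptor relative Cd180, had the highest mean. It stood at 7.94, 9.07 and 9.31 CPM in control mice and at 7.44, 6.88 and 8.23 CPM in PLDP mice. PLDP mice 17 and 22 were below all control mice and PLDP mouse 26 was above control mouse 2, and the log2 fold change was -0.23 (unadjusted p = 0.055). The lipopolysaccharide coreceptor Cd14 had a log2 fold change of -0.21, the lipopeptide receptor Tlr2 one of -0.02 and the RNA receptor Tlr7 one of 0.22, and none of the 3 passed the threshold.

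Of 5 tested lysosomal and phagocytic genes 0 passed the threshold by edgeR. Lgmn, a protease also made by other brain cells and the member with the highest mean CPM, stood at 111.7, 117.8 and 107.4 CPM in control mice and at 113.4, 109.6 and 108.4 CPM in PLDP mice. All PLDP mice lay within the control range, and the 95% interval of the log2 fold change ran from -0.12 to 0.07. Ctss had a log2 fold change of -0.05, the lysosomal membrane protein Laptm5 one of 0.06 and the macrophage lysosome marker Cd68 one of 0.07. Of the leukocyte and cytoskeletal members, Ptprc, Cd84 and Aif1, which encodes the marker Iba1, had log2 fold changes of -0.06, -0.03 and -0.01.

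Some members passed the threshold only with 1 mouse left out. Ly86 fell by 0.30 on the log2 scale without control mouse 2 or without PLDP mouse 26, with an edgeR p of 0.028 each time, and Mpeg1 by 0.18 without PLDP mouse 26, with an edgeR p of 0.033. Without PLDP mouse 17, Gpr34 and C1qa fell by 0.24 and 0.12 and Csf3r rose by 0.38, and 12.5% of all features passed. Without PLDP mouse 22, Sall1 fell by 0.16, at an edgeR p of 0.0497, and Fcgr3 rose by 0.32. Of all features, 5.95% passed without control mouse 2, 8.47% without control mouse 10, 8.18% without PLDP mouse 22 and 7.24% without PLDP mouse 26.

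With fewer mice in a diet more features separate the diets, and the members did so as well. The members lower and higher without overlap were 10 and 5 without control mouse 2, beside 22.1% of all features in either direction, 7 and 3 without control mouse 5, beside 22.7%, and 6 and 1 without control mouse 10, beside 25.4%. They were 9 and 2 without PLDP mouse 17, beside 29.2%, 5 and 3 without PLDP mouse 22, beside 24.3%, and 7 and 2 without PLDP mouse 26, beside 23.0%.

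**Figure D4:**
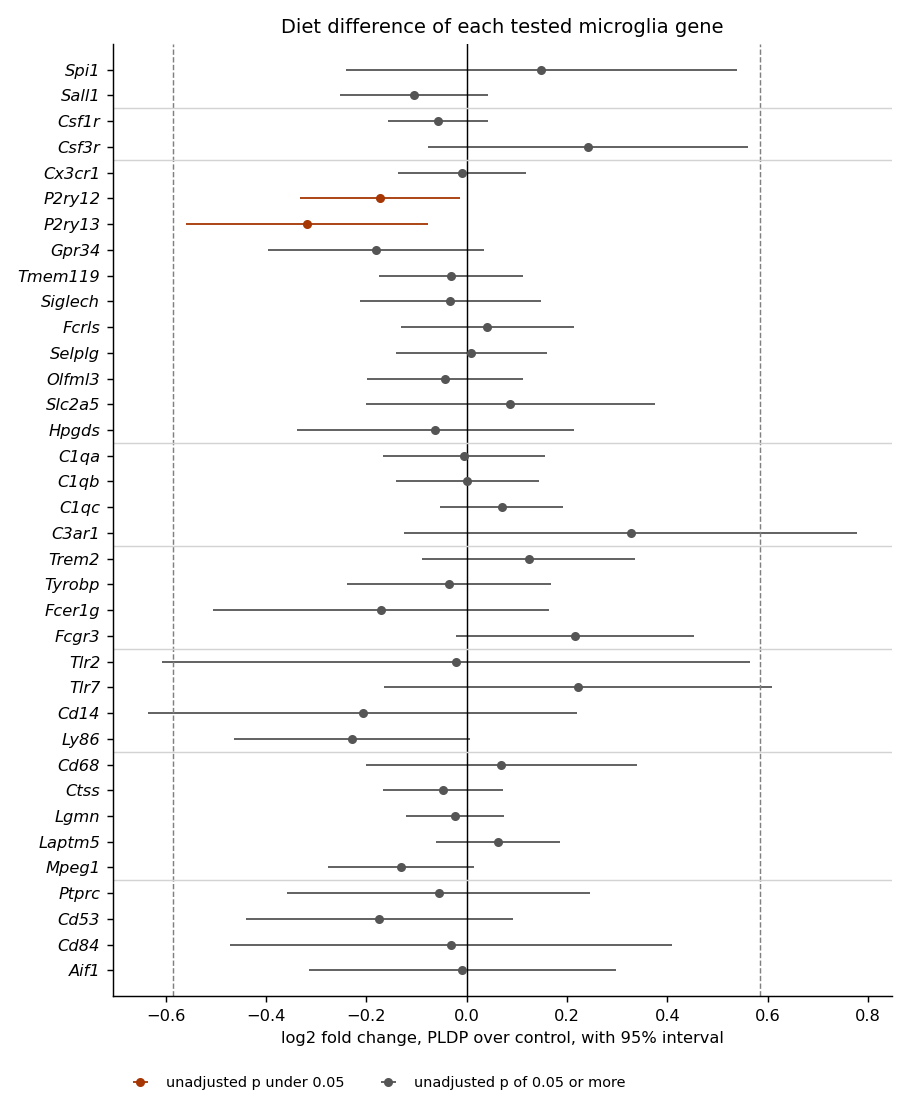
log2 fold change of PLDP over control for each tested microglia gene with its 95% interval from edgeR, grouped by role, with members at an unadjusted p under 0.05 in red and dashed lines at a 1.5-fold change. P2ry12 at -0.17 and P2ry13 at -0.32 are the only intervals that lie on 1 side of 0, and 32 of 36 intervals lie between the dashed lines.

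Itgam, which encodes a subunit of complement receptor 3 and marks microglia, was listed at 0 counts in 4 mice and at 1 count in control mouse 10 and in PLDP mouse 22. In GENCODE M21 it shares exonic bases on the same strand with the predicted gene Gm49368, which had 2 counts in PLDP mouse 26 and 0 in the others. Each tested member had counts in all 6 mice. Low counts were also listed for Apoe, at 27 to 44 per mouse, although it is abundant in brain. What set these counts was not tested, and no level of Itgam is given.

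Signals that maintain microglia were described from a list of ligands, partner receptors and regulators, of which 15 genes were tested. Of these, 3 rose and 2 fell at an unadjusted p under 0.05, beside the 4.91% higher and 3.69% lower over all features, and the median log2 fold change was -0.03. Cd47, the ligand through which neurons restrain phagocytosis, rose by 0.13 on the log2 scale, from 136.7 ± 3.2 to 149.4 ± 6.5 CPM (SD, n = 3 mice each). Cx3cl1, the fractalkine that Cx3cr1 binds, rose by 0.09, and Smad3, a mediator of TGF-beta signaling, by 0.14. Cd200, a neuronal ligand that restrains microglia, fell by 0.12, and Mef2a, a transcription factor also found in neurons, fell by 0.10. Sirpa, the receptor for Cd47, had a value of 0.05. Both ligands of Csf1r were lower in every PLDP mouse than in every control mouse. Csf1 had a value of -0.11 (edgeR unadjusted p = 0.106) and Il34 one of -0.06 (edgeR unadjusted p = 0.307). The gap of Il34 was narrow, at 34.95 CPM in PLDP mouse 26 and 35.07 CPM in control mouse 2. In this list 5 genes were lower and 3 higher without overlap, beside 6.90% and 7.29% of all features. Each of the 5 calls at an unadjusted p under 0.05 was lost without at least 1 mouse. That of Cd47 was lost without PLDP mouse 26, and that of Smad3 without control mouse 2, PLDP mouse 22 or PLDP mouse 26. Those of Cd200 and Mef2a were lost without control mouse 5 or PLDP mouse 26. That of Cx3cl1 was lost without any 1 of control mice 5 and 10 and PLDP mice 22 and 26.

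Of 25 tested genes in a further list of microglia-enriched genes, 1, or 4%, rose and 0 fell by edgeR, with a median log2 fold change of 0.0014. Over all features 4.91% were higher and 3.69% lower at the same unadjusted p under 0.05. The kinase Syk, which acts below Trem2 and Tyrobp, rose by 0.33 on the log2 scale, from 3.96 ± 0.10 to 4.98 ± 0.29 CPM (n = 3 mice each). The call was lost without control mouse 2, control mouse 5 or PLDP mouse 22. Bin1 at 0.03 and Ctsd at -0.02, the genes of this list with the highest mean CPM, did not pass.

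Of 17 tested genes that microglia raise in neurodegenerative disease, 4, or 23.5%, fell and 0 rose by edgeR at an unadjusted p under 0.05. Over all features 3.69% were lower and 4.91% higher, and the median log2 fold change of the list was -0.06. The tetraspanin Cd9 fell by 0.23 on the log2 scale, from 33.8 ± 2.3 to 28.9 ± 0.5 CPM (n = 3 mice each), and remained under the threshold with any 1 mouse left out. The matrix protein Spp1 fell by 0.19, the protease Ctsl by 0.11 and the chemokine Ccl6 by 0.54, and each lost its call without at least 3 of the 6 mice in turn. Cd9, Spp1 and Ctsl are also made by other brain cells, and the smallest adjusted p in the list was 0.306 by edgeR. Fth1 and Ctsb, the highest of the list, had values of 0.05 and 0.01.

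Of 13 tested partners and regulators of complement, 0 passed the threshold by edgeR, with a median of -0.04. Clu and C4b, the most abundant, had log2 fold changes of 0.0001 and -0.0018. Of 20 tested genes of Toll-like receptor signaling, the kinase gene Irak4 rose by 0.56 and the double-stranded RNA receptor Tlr3 fell by 0.27, and the median was 0.02. These 2 calls were 10% of the list, beside 8.60% of all features that passed in either direction. Irak4 lost its call without PLDP mouse 17, and Tlr3 without PLDP mouse 17 or control mouse 5. Map3k7 and Irak1, the highest of that list, both had a value of -0.05. Of 16 inflammatory cytokines and enzymes 8 could be tested and 0 passed, Il18 at -0.09 and Ptgs2 at 0.07 being the most abundant. Il10 had 0 counts in every mouse, Tnf at most 1 and Il6 at most 3, so differences in these were not detectable at this depth.

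**Figure D5:**
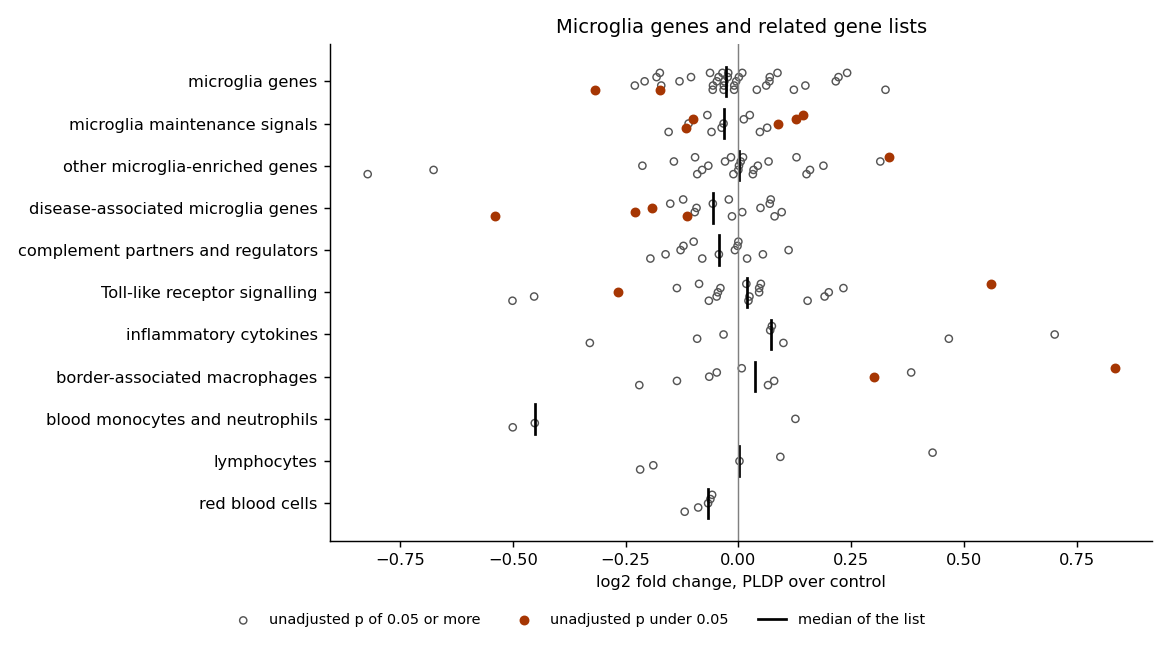
log2 fold change of PLDP over control of each tested gene of the microglia list and of 10 related lists, as points, filled where the unadjusted p by edgeR was under 0.05, with a bar at the median of each list. The median of the microglia genes is -0.03, and the list of border-associated macrophages holds the filled points of Stab1 and Folr2 on the right.

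Markers of other cells that share genes with microglia were compared as well. Border-associated macrophages, which lie along vessels and in the meninges, had a summed level of 32.2 to 37.5 CPM in control mice and of 37.7 to 39.7 CPM in PLDP mice. Without Stab1, the highest of them, the sums overlapped, at 16.3 to 19.6 CPM in control and 16.9 to 18.4 CPM in PLDP mice. Of their 10 tested markers 2, or 20%, rose and 0 fell by edgeR at an unadjusted p under 0.05. Over all features 4.91% were higher and 3.69% lower. The scavenger receptor Stab1 rose by 0.30 on the log2 scale, from 16.9 ± 1.0 to 20.8 ± 1.8 CPM (n = 3 mice each), and passed with any 1 mouse left out. The folate receptor Folr2, with 7 to 15 counts per mouse, rose by 0.84 and missed the threshold in 5 of the 6 fits with 1 mouse left out. The defining marker Mrc1, at 5.60 ± 0.87 in control and 5.41 ± 0.26 in PLDP mice, had a value of -0.05. Several members, among them Csf1r, Mpeg1 and C3ar1, are also expressed by these cells, and their part in the members' levels was not tested.

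Markers of blood cells were listed in 3 groups, and 0 passed the threshold by edgeR. Of 13 markers of monocytes and neutrophils 3 were tested and 0 passed, and their summed level was 4.54 to 7.42 CPM in control and 4.33 to 5.37 CPM in PLDP mice, with Ly6c2 at 0.13 and S100a9 at -0.50 on the log2 scale the highest and Elane and Retnlg at no more than 3 counts in any mouse. Of 15 lymphocyte markers 5 were tested and 0 passed, with Ighm at 0.0026 and Cd4 at 0.09 the highest, and their summed level was 27.5 to 32.03 CPM in control and 27.7 to 31.7 CPM in PLDP mice. Of the 6 hemoglobin and red cell genes 5 were tested and 0 passed, Hba-a1 at -0.07 and Hba-a2 at -0.06 being the highest, and the summed level ran from 325.8 to 585.0 CPM in control and from 400.8 to 493.3 CPM in PLDP mice.

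Total counts per mouse were between 18797061 and 23938729, and mitochondrial genes took between 2.53% and 2.80% of them. All 15 markers of neurons, astrocytes, oligodendrocytes, vessels and choroid plexus in the list for whole brain were detected, with Mbp and Snap25 highest. Their summed level was 9316 to 9643 CPM in control and 8994 to 9231 CPM in PLDP mice, and without Mbp it was 5993 to 6079 CPM in control and 5792 to 6090 CPM in PLDP mice, which overlapped. Of these, 1 rose and 4 fell at an unadjusted p under 0.05 by edgeR, or 33.3% of the list beside 8.60% of all features. Among them the endothelial gene Pecam1 rose by 0.25 on the log2 scale, the choroid plexus gene Ttr fell by 0.22, the myelin gene Mbp by 0.12 and the astrocyte channel Aqp4 by 0.11. The lowest log2 fold change of the list was -0.25, and not every gene that fell is named here. Whether the makeup of the tissue taken from each mouse moved with the microglia genes was not tested.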

How the data were processed

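Libraries of polyadenylated RNA from the brains of 6 mice were made with a kit that keeps strand. The deposited values are whole-number read counts per gene, 1 file for each mouse, which the authors had not normalized. The submitters' processing notes name cutadapt 2.9, HISAT2 2.2.0, featureCounts 2.6.0 and DESeq2 1.6.3 and list the builds GRCm38 and GRCh38, without their roles or order. The annotation, the strand setting and the treatment of shared reads are not given in the sources used here, so overlapping genes are uncertain. No column of counts was left out.

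Members, roles and related lists were chosen with earlier results of these data known. Symbols and positions came from GENCODE M21, in which 54777 of 55034 Ensembl identifiers were found; 5320 numbered features stayed in the tests. In edgeR 4.0.16 (R 4.3.3), all features were filtered by diet with filterByExpr (minimum count 10, minimum total 15), given TMM factors and fitted with glmQLFit on diet alone, and glmQLFTest gave the p values. The threshold was an unadjusted p under 0.05, as in the study's methods, with Benjamini-Hochberg values over all features. Fold changes are log2, PLDP over control. Intervals are 95% from the same fit. Lists are described by counts and medians, without a set test. The labels number the mice separately. Each p value compares the diets over 3 mice each, against a spread that the fit moderates with information from all features. Total counts of 18797061 to 23938729 limit genes with few counts.

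Full values are given for members with an unadjusted p under 0.05, members whose diets do not overlap and the highest member of each role by mean CPM. Of other lists, genes with an unadjusted p under 0.05 and the 2 with the highest mean CPM are named; other genes of those lists were named after their values were seen. Not every gene reached by this rule is reported here. Alternatives were relative log expression (RLE) factors, library size only, no low-count filter, at least 10 counts in every mouse, DESeq2 1.42.0, limma 3.58.1 voom, and leaving out each mouse. Sums without the highest gene of a list were added after seeing the data. Promoter windows were RefSeq's, of 27 members. Python 3.11.15, pandas 2.3.3 and matplotlib 3.10.9 were used.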

Additional observations from a re-analysis of the deposited data

How the results depend on the processing

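RLE factors, library size only, no low-count filter, at least 10 counts in every mouse and limma voom left the count of 2 members lower and 0 higher as it was, and DESeq2 gave 1 member lower, P2ry13. Across these 6 settings, 212 log2 fold changes of members kept their direction and their side of the threshold. The exceptions were P2ry12 with DESeq2 and C1qb, whose value near 0 turned to -0.00083 with library size only, -0.0018 with no low-count filter and -0.0047 with limma voom.

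Among the other lists, DESeq2 gave 1 maintenance signal lower, 0 further microglia-enriched genes higher and 1 border-associated macrophage gene higher. No low-count filter gave 2 further microglia-enriched genes higher, 1 complement partner lower, 4 Toll-like receptor genes lower, 1 cytokine higher, 1 border-associated macrophage gene higher, 1 lymphocyte gene higher and 1 red blood cell gene lower. At least 10 counts in every mouse gave 1 border-associated macrophage gene higher, and limma voom gave 2 brain cell markers higher. Over all features 1.95% were lower with DESeq2 and 3.76% with limma voom. Shares of all features higher with these tools, or passing under the other filters, are not given here. Without those shares the counts above are not results about the lists. More or fewer genes tested follow from the filters, and the cause of the other differences was not tested.

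Leaving out each mouse in turn gave 0 to 4 microglia genes lower, 0 to 1 higher, 5 to 10 lower without overlap between diets and 1 to 5 higher without overlap. In these fits 22.1% to 29.2% of all features separated the diets, and 5.95% to 12.5% passed the threshold. The counts ran from 0 to 3 higher and 0 to 2 lower for maintenance signals, 0 to 2 higher and 0 to 1 lower for further microglia-enriched genes and 1 to 6 lower for disease-associated genes. They ran from 0 to 1 lower for complement partners, 0 to 2 higher and 0 to 3 lower for Toll-like receptor genes and 0 to 1 in each direction for cytokines. Border-associated macrophage genes ran from 1 to 2 higher, monocyte and neutrophil genes from 0 to 1 lower, red blood cell genes from 0 to 4 lower, and brain cell markers from 1 to 2 higher and 2 to 4 lower. The direction of 13 members with values near 0 turned. Their log2 fold changes ran from -0.078 to 0.11 for Aif1, from -0.12 to 0.065 for C1qa, from -0.089 to 0.062 for C1qb, from -0.010 to 0.18 for Cd68, from -0.19 to 0.21 for Cd84, from -0.051 to 0.033 for Cx3cr1 and from -0.0092 to 0.072 for Fcrls. They ran from -0.11 to 0.040 for Hpgds, from -0.056 to 0.012 for Lgmn, from -0.031 to 0.048 for Selplg, from -0.086 to 0.021 for Siglech, from -0.25 to 0.17 for Tlr2 and from -0.088 to 0.041 for Tyrobp.

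No paired analysis was possible because the diets share no mouse numbers. Depth and 3 mice per diet limited the members with few counts: the interval of 4 of the 18 members under 10 CPM reached past a 1.5-fold change.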
